A study of Oryza sativa with 18 samples.

Results

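The rice 12-oxophytodienoate reductases (OPR) were followed here through 6 genes, taken by gene identifier: OPR1 (LOC4340490), OPR4 (LOC4340484), OPR5 (LOC4340485) and OPR10 (LOC4340486) on chromosome 6, OPR7 (LOC4329684) on chromosome 2 and OPR13 (LOC4345762) on chromosome 8. They are 6 of the 17905 genes with a probe set annotated to 1 gene on the array. Each was read from the probe set of that kind with the highest mean log2 signal over all 18 arrays. The samples were leaf sheaths of young rice plants at the four-leaf stage, grown in a chamber, and total RNA of each sample was hybridised as biotin-labelled cRNA to 1 Affymetrix array. There were 6 groups of 3 biological replicates: the variety 9311, labelled susceptible to the brown planthopper (BPH), and NIL-BPH9, labelled resistant and named for the planthopper resistance locus BPH9, each at 0 h without insects and at 3 h and 6 h of planthopper feeding. Only 1 susceptible variety and 1 resistant line were used, and the labels do not say whether a replicate was 1 plant or a pool. Samples taken at 3 h and 6 h from plants without insects were not analysed here, so feeding and time of day cannot be told apart.

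OPRs are flavin-dependent enzymes of the old yellow enzyme family. Jasmonate, the wound and herbivory hormone of plants, is made from linolenic acid by lipoxygenases (LOX), allene oxide synthase (AOS) and allene oxide cyclase (AOC), whose product is reduced in the peroxisome by an OPR of the second type before its side chain is shortened. OPRs of the first type prefer the other stereoisomer of that product and also reduce other unsaturated carbonyl compounds, and their place in jasmonate synthesis is less certain.

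OPR13 is the rice enzyme of the second type, and the gene table also lists it as OG1, OPR3 and OPR7. The gene called OPR7 here is a different one, also listed as OPR8. OPR1, also listed as OPR2 and RRJ4, is known in rice as a gene induced by jasmonate. The 4 genes on chromosome 6 lie near each other in the order OPR4, OPR5, OPR10 and OPR1. Between OPR10 and OPR1 the table places a gene named OPR3, which had no probe set annotated to it alone, and a pseudogene. The gene that follows OPR1 carries many of the same names as OPR1 and also had no such probe set. A probe set of this cluster could bind transcripts of a close copy, and the part of such binding in the values below was not tested.

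Levels are given as log2 of the deposited MAS5 signal, the array software's summary of 1 probe set, and differences as differences of those log2 values, so that 1 is a 2-fold change. A level of one probe set was not set against that of another, since probe sets differ in brightness. Changes were tested with limma over 33094 probe sets, and a change was called where its Benjamini-Hochberg adjusted p was under 0.05. All 6 genes passed the filter on dim probe sets, OPR4 with its 3 arrays at or above the array median, the fewest that the filter allowed. Array medians lay between 5.18 and 5.52. Each p-value sets a difference against the spread between replicates within groups, pooled over all 6 groups of both lines and moderated by limma. An array of 1 line can therefore change a call in the other.

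Arrays of 1 group correlated at 0.956 to 0.967 over probe sets and arrays of different groups at 0.940 to 0.960. On the fourth principal component, with 6.88% of the variance, replicate 3 of 9311 at 0 h stood apart at 74.45, and the highest of the other arrays was at 31.57. Without it the same OPR genes were called in each comparison. All 5 measured green leaf genes lay above the array median in every group, with a summed linear signal of 90860 to 113400, and developing seed genes summed to 544 to 841. Genes of dividing cells summed to 18910 to 19150 in 9311 at 0 h, 7542 to 7837 at 3 h and 11470 to 11680 at 6 h, and in NIL-BPH9 to 9344 to 9468, 8336 to 8949 and 10250 to 10890. In bulk tissue, fewer cells of a type and less RNA per cell cannot be told apart.

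OPR13, the peroxisomal enzyme of jasmonate synthesis, rose in both lines at 3 h and was lower again at 6 h while still above its 0 h level. In 9311 its log2 level was 11.26, 11.31 and 11.48 at 0 h, 11.94, 11.81 and 11.87 at 3 h, and 11.59, 11.70 and 11.60 at 6 h. In NIL-BPH9 it was 11.35, 11.41 and 11.21 at 0 h, 12.05, 12.02 and 12.06 at 3 h, and 11.75, 11.79 and 11.77 at 6 h. Within each line all 3 h arrays lay above all 6 h arrays, and all of those above all 0 h arrays. OPR13 had the smallest spread of the 6 genes, with a pooled SD within groups of 0.07.

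The 3 h rise of OPR13 was 0.53 ± 0.06 (SE) on the log2 scale in 9311, or 1.44-fold, with an adjusted p from limma of 8.82e-06. Without replicate 3 of 9311 at 0 h it was 0.59, with an adjusted p of 1.40e-06. In NIL-BPH9 the rise was 0.72 ± 0.06, or 1.65-fold (limma, adjusted p = 1.42e-07). OPR13 was thus called in both lines, and of all probe sets 7.61% were called higher at 3 h in 9311 and 7.61% in NIL-BPH9.

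At 6 h OPR13 stood 0.28 ± 0.06 above 0 h in 9311 (limma, adjusted p = 0.00833) and 0.45 ± 0.06 in NIL-BPH9 (adjusted p = 5.18e-05). The 9311 call was lost without replicate 2 of 9311 at 6 h (0.24, adjusted p = 0.0512) and with only the arrays compared in the fit (adjusted p = 0.131). Between 3 h and 6 h OPR13 fell by 0.25 in 9311 (adjusted p = 0.0246) and by 0.27 in NIL-BPH9 (adjusted p = 0.00527). Both falls lost their call when each array was centred on its median, at -0.20 with an adjusted p of 0.393 and -0.18 with an adjusted p of 0.272. The 9311 fall was also lost without replicate 1 or 3 of the 3 h group or replicate 1 or 3 of the 6 h group (adjusted p from 0.0717 to 0.119) and without the intensity trend (0.0651). Of the 3 h change of OPR13, 52.8% was left at 6 h in 9311 and 62.4% in NIL-BPH9.

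**Figure D1:**
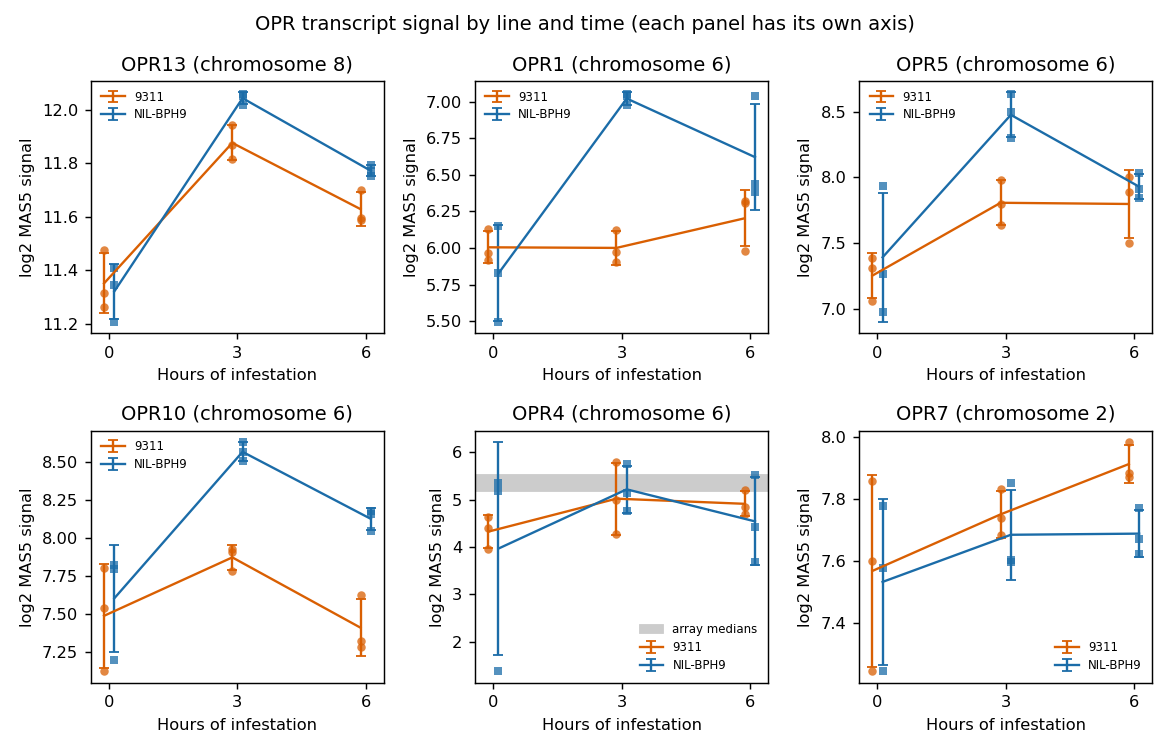
Log2 MAS5 signal (vertical axis, its own scale in each panel) of the 6 OPR genes against hours of infestation (horizontal axis) in 9311 (orange circles) and NIL-BPH9 (blue squares). Small symbols are the 3 arrays of a group, lines join group means, and bars are ± SD. The grey band, drawn for OPR4 alone, is the range of array medians. The lowest OPR1 array, at 5.50, lay inside that range. OPR13 rises in both lines at 3 h, OPR1, OPR5 and OPR10 reach their highest group mean in NIL-BPH9 at 3 h, and OPR4 lies mostly under the array medians.

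OPR1 rose at 3 h in NIL-BPH9 and showed no called change in 9311. Its log2 level in 9311 was 6.13, 5.92 and 5.97 at 0 h, 5.97, 6.13 and 5.90 at 3 h, and 5.98, 6.32 and 6.30 at 6 h. In NIL-BPH9 it was 6.15, 5.83 and 5.50 at 0 h, 7.05, 7.04 and 6.97 at 3 h, and 6.44, 7.04 and 6.39 at 6 h. The 3 h arrays of NIL-BPH9 lay above every array of 9311, and so did its 6 h arrays. OPR1 was at or above the array median on all 18 arrays. In 9311 and in NIL-BPH9 at 0 h its levels, 5.50 to 6.32, were not far from the array medians of 5.18 to 5.52.

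In NIL-BPH9 the change of OPR1 at 3 h was 1.20 ± 0.24, or 2.29-fold (limma, adjusted p = 0.00214). In 9311 it was -0.00 ± 0.24 with a 95% interval from -0.52 to 0.51 (adjusted p = 0.995). At 6 h the level in NIL-BPH9 was 0.79 ± 0.24 above 0 h (adjusted p = 0.0292), with 66.5% of the 3 h change left. The 6 h call was lost without replicate 2 or 3 of NIL-BPH9 at 0 h (adjusted p = 0.0619 and 0.135), without replicate 2 at 6 h (0.59, adjusted p = 0.152), without the filter (0.0628) and with only the arrays compared (0.105).

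OPR5 also rose at 3 h in NIL-BPH9. Its log2 level in 9311 was 7.38, 7.31 and 7.06 at 0 h, 7.64, 7.80 and 7.98 at 3 h, and 7.50, 8.002 and 7.89 at 6 h. In NIL-BPH9 it was 7.27, 7.93 and 6.98 at 0 h, 8.30, 8.63 and 8.50 at 3 h, and 7.84, 8.03 and 7.91 at 6 h. The NIL-BPH9 arrays at 3 h were above all others, and replicate 2 of its 0 h group lay inside the range of its 6 h group.

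The 3 h change of OPR5 in NIL-BPH9 was 1.08 ± 0.20, or 2.12-fold (limma, adjusted p = 0.000863). In 9311 it was 0.55 ± 0.20 (adjusted p = 0.0725), a difference without overlap of the arrays that missed the threshold and passed it without replicate 2 or replicate 3 of NIL-BPH9 at 0 h (adjusted p = 0.0250 and 0.0437). The 6 h difference of OPR5 from 0 h was 0.54 ± 0.20 in NIL-BPH9 (adjusted p = 0.0686) and 0.55 ± 0.20 in 9311 (adjusted p = 0.113). The first of these was called without replicate 2 of NIL-BPH9 at 0 h (0.81, adjusted p = 0.00550), after quantile normalization (0.65, adjusted p = 0.0281) and after median centring (0.66, adjusted p = 0.0371). The 9311 value at 6 h was called without that same array of NIL-BPH9 (adjusted p = 0.0452). A second probe set of OPR5 was dim, at 0 of 18 arrays at or above the median, and gave a NIL-BPH9 change at 3 h of 0.97 with an adjusted p of 0.682. Its group mean went from 3.97 to 4.94 in NIL-BPH9 and from 2.45 to 4.66 in 9311, where replicate 2 at 0 h was at 0.16. On this probe set the larger rise was thus that of 9311. Its difference between the lines at 3 h was 0.28 (limma, adjusted p = 0.955).

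OPR10 was the third gene of the cluster to rise at 3 h in NIL-BPH9. Its log2 level in 9311 was 7.12, 7.54 and 7.80 at 0 h, 7.93, 7.91 and 7.78 at 3 h, and 7.28, 7.32 and 7.62 at 6 h. In NIL-BPH9 it was 7.82, 7.19 and 7.79 at 0 h, 8.57, 8.51 and 8.63 at 3 h, and 8.16, 8.04 and 8.17 at 6 h. All 6 infested arrays of NIL-BPH9 lay above all 9 arrays of 9311.

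The 3 h change of OPR10 was 0.97 ± 0.18 in NIL-BPH9, or 1.95-fold (limma, adjusted p = 0.000813), and 0.39 ± 0.18 in 9311 (adjusted p = 0.176). At 6 h it was 0.52 ± 0.18 above 0 h in NIL-BPH9 (adjusted p = 0.0456), and -0.08 ± 0.18 in 9311 (adjusted p = 0.873). The NIL-BPH9 call at 6 h was lost when any 1 of 14 of the 18 arrays was left out, and was kept without replicate 1 or 3 of 9311 at 0 h, replicate 3 of 9311 at 6 h or replicate 1 of NIL-BPH9 at 0 h. Its lowest value was 0.32 (adjusted p = 0.225), without replicate 2 of NIL-BPH9 at 0 h. It was called in 8 of 26 alternatives, and not without the filter (adjusted p = 0.0709), with dim values raised to the array median (0.0579), without the intensity trend (0.0621) or with only the arrays compared (0.0702).

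OPR4, the remaining gene of the cluster, was near background and gave no called change. Its log2 level in 9311 was 4.63, 3.95 and 4.39 at 0 h, 4.27, 4.99 and 5.79 at 3 h, and 5.20, 4.70 and 4.84 at 6 h. In NIL-BPH9 it was 5.35, 5.17 and 1.38 at 0 h, 5.75, 5.13 and 4.76 at 3 h, and 5.52, 4.42 and 3.67 at 6 h. Replicate 3 of NIL-BPH9 at 0 h was far below the other arrays, and the pooled SD of 1.07 was the largest of the 6 genes. The 3 h change was 0.70 ± 0.83 in 9311 (limma, adjusted p = 0.689) and 1.25 ± 0.83 in NIL-BPH9 (adjusted p = 0.377), with a 95% interval in NIL-BPH9 from -0.49 to 2.99. Without replicate 3 of NIL-BPH9 at 0 h the NIL-BPH9 change was -0.05, so its rise rested on that array. The arrays that took OPR4 past the filter were all from infested groups.

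OPR7 had the narrowest range of group means, 0.38, and no called change in either line. Its log2 level in 9311 was 7.86, 7.60 and 7.24 at 0 h, 7.74, 7.83 and 7.68 at 3 h, and 7.98, 7.89 and 7.87 at 6 h. In NIL-BPH9 it was 7.78, 7.24 and 7.58 at 0 h, 7.60, 7.85 and 7.60 at 3 h, and 7.67, 7.77 and 7.62 at 6 h. The 6 h arrays of 9311 lay above all 15 other arrays, and the other groups overlapped. The 95% interval of its 3 h change ran from -0.16 to 0.52 in 9311 and from -0.19 to 0.49 in NIL-BPH9, so a rise as large as that of OPR1 in NIL-BPH9 lay outside both.

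Counted over the family, 4 of 6 genes (OPR1, OPR5, OPR10 and OPR13) were called higher at 3 h in NIL-BPH9 and 1 of 6 (OPR13) in 9311, beside the 7.61% of all probe sets in either line. At 6 h, 3 of 6 were called higher than at 0 h in NIL-BPH9, where 8.28% of probe sets were, and 1 of 6 in 9311, where 4.29% were. Over 16053 genes, each read from its brightest tested probe set, the shares were larger. At 3 h 11.2% of genes were called higher in 9311 and 11.1% in NIL-BPH9, and at 6 h 6.37% and 12.2%. From 3 h to 6 h, OPR13 was called lower in both lines, beside 7.76% of probe sets in NIL-BPH9 and 2.17% in 9311. No OPR gene was called lower than at 0 h, where 7.22% of probe sets were at 3 h and 3.33% at 6 h in 9311, and 6.47% and 10.4% in NIL-BPH9.

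By overlap of the arrays alone, 4 of 6 genes lay clear above 0 h at 3 h in NIL-BPH9 (15.8% of probe sets) and 2 of 6 in 9311 (13.7%), and 3 (15.3%) and 4 (9.94%) did at 6 h. The 4 in 9311 at 6 h were OPR4, OPR5, OPR7 and OPR13, and OPR13 alone of these was called. OPR4 was under the array median on every array of the groups compared. From 3 h to 6 h, 3 of 6 lay clear below in NIL-BPH9 (OPR5, OPR10 and OPR13, beside 21.2% of probe sets) and 2 of 6 in 9311 (OPR10 and OPR13, beside 12.2%). The differences of OPR5 and OPR10 in NIL-BPH9, -0.55 ± 0.20 and -0.44 ± 0.18, missed the threshold (limma, adjusted p = 0.0754 and 0.107) and passed it with only the arrays compared (0.0110 and 0.0116). That of OPR5 also passed without replicate 2 or 3 of NIL-BPH9 at 0 h (0.0267 and 0.0465). The median change of the 6 genes at 3 h was 0.46 in 9311 and 1.03 in NIL-BPH9, and over all tested probe sets it was 0.00 and -0.02.

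Genes of other cell types and the RNA quality measure moved in part with these responses. The 4 measured secondary wall genes summed to 14120 to 16210 in 9311 at 0 h and 18060 to 18730 at 3 h, and in NIL-BPH9 to 14870 to 15400 and 18190 to 18920. At 3 h 2 and 3 of the 4 were called higher, beside 11.2% and 11.1% of all genes. Of 11 dividing cell genes, 11 were called lower at 3 h in 9311 and 4 in NIL-BPH9, beside 10.4% and 8.66% of all genes. The log2 ratio of 3' to 5' control probe sets, over 5 pairs, was 1.61 ± 0.04 (SD, n = 3) at 0 h and 1.76 ± 0.06 at 3 h in 9311, and 1.69 ± 0.08 and 1.68 ± 0.03 in NIL-BPH9. The part of these in the OPR changes was not tested.

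**Figure D2:**
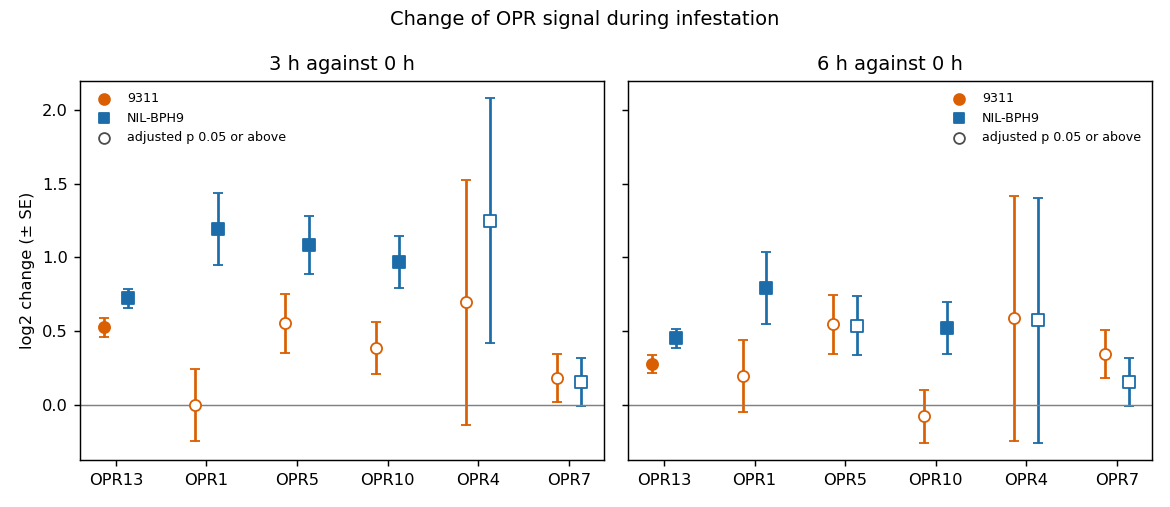
Log2 change of the 6 OPR genes (horizontal axis) against 0 h after 3 h (left) and 6 h (right) in 9311 (orange circles) and NIL-BPH9 (blue squares). Bars are ± SE from limma, and filled symbols have an adjusted p under 0.05: 1 gene in 9311 at either time, and 4 genes at 3 h and 3 at 6 h in NIL-BPH9.

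The chromosome 6 genes were set against the other members by the mean log2 change of OPR1, OPR4, OPR5 and OPR10 on each array from the 0 h mean of the same line, as a description without a test. Each ± is the SD of the arrays at the time named and leaves out the spread of the 0 h arrays. At 0 h the SD of the cluster mean was 0.68 in NIL-BPH9 and 0.08 in 9311, and without OPR4 0.17 and 0.03. In NIL-BPH9 at 3 h this mean was 1.12 ± 0.10 (SD, n = 3), against 0.72 ± 0.02 for OPR13 and 0.15 ± 0.15 for OPR7. In 9311 at 3 h it was 0.41 ± 0.21, against 0.53 ± 0.07 for OPR13 and 0.18 ± 0.08 for OPR7. The cluster mean was thus above OPR13 in NIL-BPH9 and below it in 9311, where their arrays overlapped with OPR4 in the mean. Without OPR4 the 9311 arrays at 3 h were at 0.27 to 0.36, all below those of OPR13 at 0.46 to 0.59. Gene by gene this order did not hold in 9311. There OPR1 changed by -0.00 and OPR10 by 0.39, below OPR13, and OPR5 by 0.55 and OPR4 by 0.70, above it. In NIL-BPH9 the changes of OPR10 (0.97), OPR5 (1.08), OPR1 (1.20) and OPR4 (1.25) were all above that of OPR13.

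At 6 h the cluster mean was 0.61 ± 0.24 in NIL-BPH9 and 0.31 ± 0.09 in 9311. OPR13 was at 0.45 ± 0.02 and 0.28 ± 0.06, and OPR7 at 0.16 ± 0.08 and 0.35 ± 0.06. Without the dim OPR4, the 3 h means of the cluster were 1.08 ± 0.05 and 0.31 ± 0.05, and the 6 h means 0.62 ± 0.13 and 0.22 ± 0.19.

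**Figure D3:**
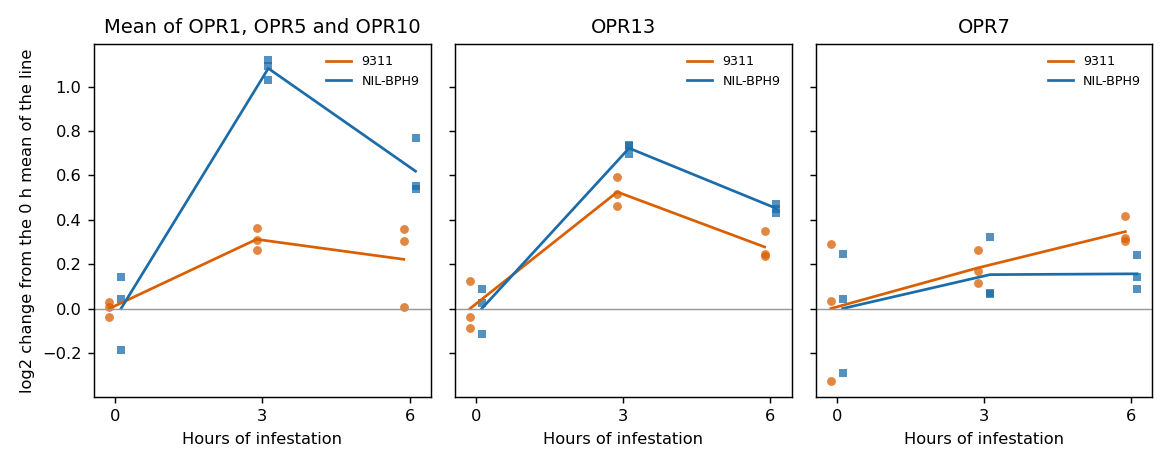
Log2 change from the 0 h mean of the same line (vertical axis, shared) against hours of infestation for the mean of OPR1, OPR5 and OPR10 (left), OPR13 (middle) and OPR7 (right). Points are single arrays and lines join group means; at 3 h the chromosome 6 mean is 1.08 in NIL-BPH9 and 0.31 in 9311, while OPR13 is at 0.72 and 0.53.

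Before infestation the lines did not show a called difference in any OPR gene, where 14.4% of all probe sets were called in either direction. The 0 h difference, NIL-BPH9 minus 9311, was -0.18 ± 0.24 for OPR1, -0.36 ± 0.83 for OPR4, 0.14 ± 0.20 for OPR5, -0.04 ± 0.16 for OPR7, 0.12 ± 0.18 for OPR10 and -0.03 ± 0.06 for OPR13. The arrays of the lines overlapped for all 6. For OPR13 the 95% interval was narrow, from -0.16 to 0.10, and for OPR4 it ran from -2.10 to 1.38.

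At 3 h, 3 of 6 genes were called higher in NIL-BPH9, all on chromosome 6, where 4.25% of probe sets and 5.71% of genes were. OPR1 was 1.02 ± 0.24 higher, or 2.03-fold (limma, adjusted p = 0.0120), OPR10 was 0.70 ± 0.18 higher (adjusted p = 0.0180) and OPR5 was 0.67 ± 0.20 higher (adjusted p = 0.0473). Without overlap of the arrays, 4 of 6 genes were higher, where 13.9% of probe sets were. The fourth was OPR13, at 0.17 ± 0.06 (limma, adjusted p = 0.132), which passed with only the arrays compared (adjusted p = 0.0366). The OPR5 call was lost when any 1 of 13 of the 18 arrays was left out (adjusted p up to 0.180), and was kept without replicate 1 or 3 of 9311 at 0 h, replicate 1 of 9311 at 6 h or replicate 2 or 3 of NIL-BPH9 at 0 h. It was also lost after median centring (adjusted p = 0.107), without the filter (0.0702), with dim values raised to the array median (0.0607) and without the intensity trend (0.0781), and was called in 9 of 26 alternatives. The OPR10 call was lost without replicate 3 of 9311, replicate 1 or replicate 3 of NIL-BPH9 at 3 h (adjusted p = 0.0755, 0.0575 and 0.0697).

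At 6 h, OPR10 alone was called higher in NIL-BPH9, by 0.72 ± 0.18 or 1.65-fold (limma, adjusted p = 0.0111), where 5.75% of probe sets and 7.89% of genes were called higher. Without replicate 1 of 9311 at 6 h it was 0.65 with an adjusted p of 0.0521. OPR1 was at 0.42 ± 0.24 (adjusted p = 0.323) and OPR13 at 0.14 ± 0.06 (adjusted p = 0.166), both without overlap, which with OPR10 made 3 of 6 genes beside 14% of probe sets. OPR7 was at -0.23 ± 0.16 (adjusted p = 0.437), with all arrays of NIL-BPH9 below those of 9311, as for 16.9% of probe sets.

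**Figure D4:**
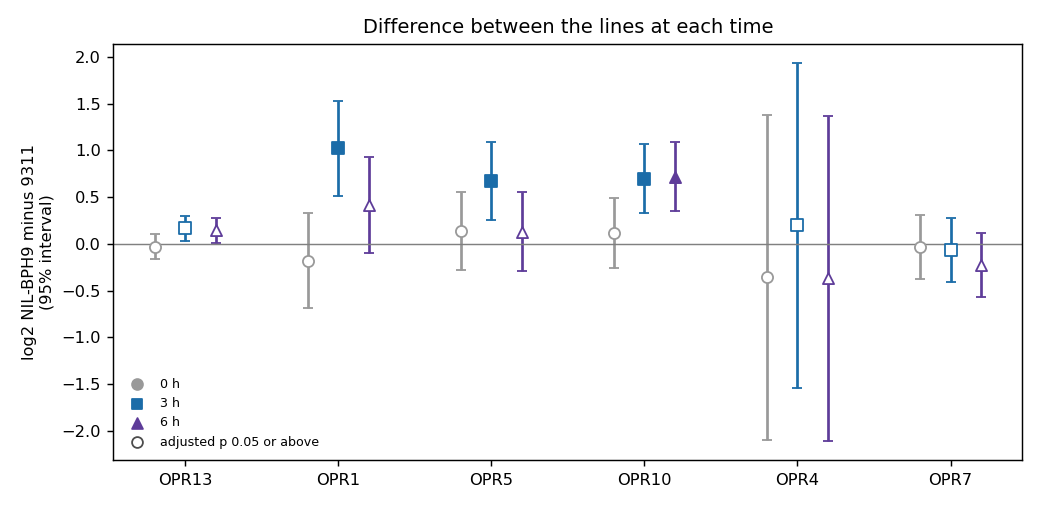
Difference of log2 signal, NIL-BPH9 minus 9311 (vertical axis), for the 6 OPR genes at 0 h (grey circles), 3 h (blue squares) and 6 h (purple triangles), with 95% intervals from limma. Filled symbols have an adjusted p under 0.05: OPR1, OPR5 and OPR10 at 3 h and OPR10 at 6 h.

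The 3 h response itself differed between the lines for OPR1, by the test of the response in NIL-BPH9 minus that in 9311. OPR1 was the 1 gene of 6 called, where 5.8% of probe sets and 8.71% of genes were called higher. The difference was 1.20 ± 0.35, with a 95% interval from 0.47 to 1.92 (limma, adjusted p = 0.0309). It kept a value of 1.03 or more when any 1 array was left out, but lost its call without 8 of the 18: replicate 1 of 9311 at 0 h, replicates 1 and 3 of 9311 at 3 h, replicates 2 and 3 of NIL-BPH9 at 0 h and each replicate of NIL-BPH9 at 3 h (adjusted p from 0.0509 to 0.0806). The 6 h arrays enter this difference through the pooled spread alone. The call was also lost after median centring and without the filter (adjusted p = 0.0689 in both).

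For the other genes the difference between the 3 h responses was not called. It was 0.58 ± 0.25 for OPR10 (limma, adjusted p = 0.161), 0.53 ± 0.28 for OPR5 (0.272), 0.55 ± 1.17 for OPR4 (0.833), 0.20 ± 0.09 for OPR13 (0.181) and -0.03 ± 0.23 for OPR7 (0.959). OPR10 passed without replicate 1 of 9311 at 0 h (0.76, adjusted p = 0.0379) and OPR5 without replicate 2 of NIL-BPH9 at 0 h (0.80, adjusted p = 0.0431). The rise of OPR5 and OPR10 called in NIL-BPH9 alone is therefore not shown to differ from that in 9311.

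For the 6 h response no OPR gene was called, where 7.03% of probe sets were called in either direction. The largest differences were 0.60 ± 0.25 for OPR10 (limma, adjusted p = 0.158) and 0.60 ± 0.35 for OPR1 (0.336). OPR10 passed without replicate 1 of 9311 at 0 h (0.79, adjusted p = 0.0370). Dividing cell genes moved with the difference between the lines as well. Of 11, 10 were called in the 3 h comparison of responses and 8 at 6 h. All had the higher value in NIL-BPH9, beside 8.71% and 5.77% of all genes. At 0 h all 11 were called lower in NIL-BPH9 than in 9311, with a median difference of -1.004. At 3 h 2 of 11 were called higher and none lower, with a median of 0.055. Their median change from 0 h to 3 h was -1.42 in 9311 and -0.23 in NIL-BPH9. By these medians the higher 3 h response in NIL-BPH9 was a smaller fall, not a rise. The 5 measured root genes had 2 called higher and 1 lower in NIL-BPH9 at 3 h, beside 5.71% and 4.31% of all genes. The 6 root genes on the array, with LSI2 that was not tested, summed to 2147 to 4140 in 9311 and 5521 to 6680 in NIL-BPH9. The part of these genes in the OPR differences was not tested.

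Within a gene, the groups can be ordered by their means. For OPR13 the order from high to low was NIL-BPH9 at 3 h, 9311 at 3 h, NIL-BPH9 at 6 h, 9311 at 6 h, 9311 at 0 h and NIL-BPH9 at 0 h, and only the last pair overlapped. For OPR10 it was NIL-BPH9 at 3 h and 6 h, then 9311 at 3 h, with no overlap among these, and then the uninfested groups and 9311 at 6 h, each overlapping its neighbour. For OPR5, NIL-BPH9 at 3 h stood clear and each later neighbour overlapped. For OPR1, NIL-BPH9 at 3 h and 6 h overlapped each other and stood clear of the other groups, which overlapped.

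Other genes of jasmonate synthesis were called higher at 3 h in part. Of 9 measured genes of synthesis outside the OPR family, 3 were called higher in 9311 and 6 in NIL-BPH9, and none lower, beside 11.2% of all 16053 measured genes called higher in 9311 and 11.1% in NIL-BPH9. Their median change was 0.19 in 9311 and 0.48 in NIL-BPH9, against 0.01 and -0.00 over all genes. AOS1 (LOC4334233), the allene oxide synthase upstream of the OPR step, rose by 0.96 ± 0.07 in 9311 (limma, adjusted p = 3.98e-08) and by 1.21 ± 0.07 in NIL-BPH9 (adjusted p = 1.27e-09). JAR1 (LOC4339756), which conjugates jasmonate to isoleucine, rose by 0.40 ± 0.06 in 9311 (adjusted p = 9.38e-05) and by 0.31 ± 0.06 in NIL-BPH9 (adjusted p = 0.00136).

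The lipoxygenase LOX9 (LOC4345994) rose by 0.96 ± 0.19 in NIL-BPH9 at 3 h (limma, adjusted p = 0.00134) and was at 0.08 ± 0.19 in 9311. Its difference between the responses, 0.88 ± 0.26, was called (adjusted p = 0.0375), as was that of the lipoxygenase LOX5 (LOC4333823), 0.46 ± 0.11 (adjusted p = 0.00812). These were 2 of the 9 synthesis genes, where 8.71% of all genes were called higher in that comparison. LOX1.1 was at -0.16 ± 0.35 in 9311 and -0.32 ± 0.35 in NIL-BPH9 at 3 h, neither called. At 6 h, 3 of 9 were called higher in 9311 and 4 of 9 in NIL-BPH9, beside 6.37% and 12.2% of all genes. The largest rise in both was that of the lipoxygenase LOX1.1 (LOC4334049), at 1.495 ± 0.35 and 1.69 ± 0.35 (limma, adjusted p = 0.0113 and 0.00269). Lipoxygenases entered the list by name, and whether each acts in jasmonate synthesis was not tested. AOS2 (LOC4332121), a second allene oxide synthase gene, rose by 1.07 ± 0.20 in NIL-BPH9 at 6 h (adjusted p = 0.000967).

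**Figure D5:**
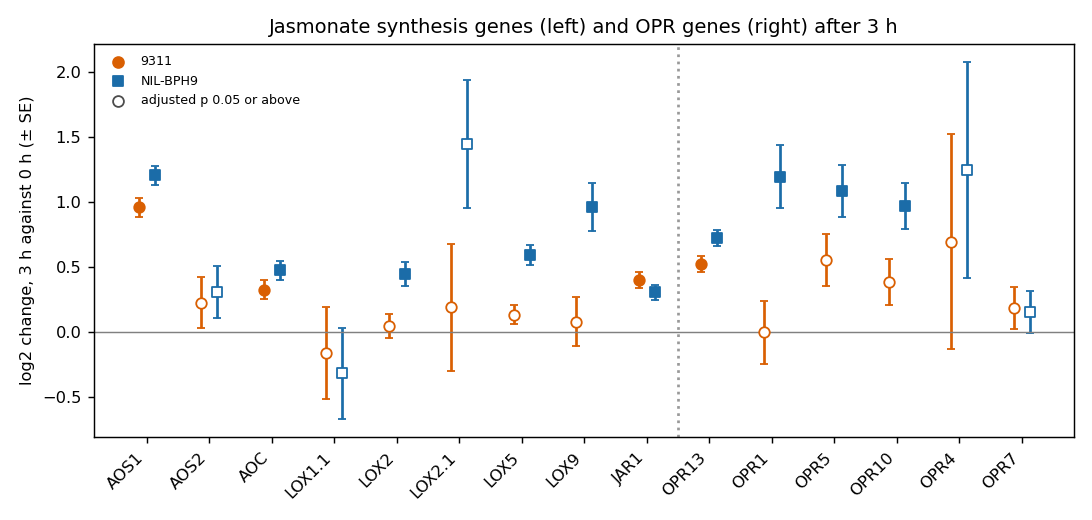
Log2 change after 3 h (vertical axis) of the 9 measured jasmonate synthesis genes outside the OPR family (left of the dotted line) and the 6 OPR genes (right) in 9311 (orange circles) and NIL-BPH9 (blue squares). Bars are ± SE from limma and filled symbols have an adjusted p under 0.05; AOS1 rises by 0.96 in 9311 and 1.21 in NIL-BPH9, beside 0.53 and 0.72 for OPR13.

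Downstream of the hormone, TIFY proteins of the JAZ type repress jasmonate responses and their genes are themselves induced by jasmonate. Of 19 measured genes of jasmonate perception and the TIFY family, 8 were called higher and 1 lower at 3 h in 9311, and 12 higher and none lower in NIL-BPH9, where 10.4% and 8.66% of all genes were called lower and the shares called higher were as above. The median change was 0.36 in 9311 and 0.74 in NIL-BPH9. At 6 h, 9 and 11 were called higher and none lower, beside 6.37% and 12.2% of all genes called higher and 4.74% and 12.96% lower. The response differed between the lines at 3 h for 8 of the 19 genes, 7 of them with the higher value in NIL-BPH9, such as TIFY11C at 1.96 ± 0.18 (limma, adjusted p = 8.25e-07), and TIFY10B (LOC4343899) with the lower one, at -0.30 ± 0.07 (adjusted p = 0.0124), beside 8.71% and 6.64% of all genes. At 6 h it differed for 4 of 19, all higher in NIL-BPH9, beside 5.77% of all genes. The largest rises at 3 h were TIFY10C (LOC4347164) at 1.36 ± 0.10 and TIFY11D (LOC4348533) at 1.15 ± 0.08 in 9311, and TIFY9 (LOC4335698) at 3.33 ± 0.68 and TIFY11C (LOC4331833) at 2.84 ± 0.13 in NIL-BPH9. At 6 h they were TIFY11B (LOC4331834) at 1.70 ± 0.06 and TIFY11A (LOC4331832) at 1.58 ± 0.20 in 9311, and TIFY11A at 3.03 ± 0.20 and TIFY9 at 2.98 ± 0.68 in NIL-BPH9. The 1 gene called lower in 9311 was COI2 (LOC4332349), of the jasmonate receptor family, at -0.16 ± 0.05 (limma, adjusted p = 0.0322).

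The genes whose signal followed each OPR gene most closely were taken as the 3 with the highest Pearson r among 2232 named and tested genes over the 18 arrays. The arrays share 6 groups, so a gene that responds to the same treatment scores high, and r is a description. OPR13 was followed by the glutaredoxin GRXC7 (r = 0.950), AOS1 (0.948) and PURA1 (0.924), an enzyme of purine synthesis. OPR1 was followed by the homeobox gene Hox13 (0.887), DXPS (0.880), of plastid isoprenoid synthesis, and LIS (0.877), a terpene synthase. DXPS and LIS changed at 3 h by -0.03 and 1.13 in 9311 and by 1.60 and 4.29 in NIL-BPH9.

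OPR5 was followed by IRX9L (r = 0.889), BC1L9 (0.854) and JAZ8 (0.858), the gene listed above as TIFY10C. OPR10 was followed by the small heat shock protein gene HSP17.9B (0.880), CYP99A3 (0.873), a cytochrome P450 of diterpene phytoalexin synthesis, and CAD6 (0.868), of the cinnamyl alcohol dehydrogenase family. The 2 genes without a called change had weaker matches: ACA10 (0.795), CESA2 (0.721) and NRAMP3 (0.705) for OPR7, and URH2 (0.688), osysl15 (0.670) and PDHE1-A (0.634) for OPR4. The named matches of the 6 genes did not overlap.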

How the data were processed

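Total RNA from 18 leaf sheath samples was measured on 1-colour Affymetrix arrays. The deposited table holds 1 log2 value per probe set and array, made by the authors with MAS5 per the submitters' processing notes; for its version and settings the sources used here give nothing. From the values, each array had been scaled to 1 target: the 2% trimmed mean of the linear signal was 500.076 to 500.088. The table held 24806 values at 0, and the number of arrays limits the precision.

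Of 57194 rice probe sets, 22436 had 1 gene, 95 had several and 34663 were unnamed here. Names come from the platform annotation, matched by gene identifier to the RefSeq table of assembly ASM3414082v1, which was used for names, chromosomes and gene order; a name is the symbol or, where that is a LOC number, a listed synonym.

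Probe sets at or above the array median on at least 3 arrays (33094) were tested with limma 3.58.1 in R 4.3.3: 6 group means over all 18 arrays, 11 contrasts, moderated by eBayes along the intensity trend, and p-values adjusted by Benjamini-Hochberg with a threshold of 0.05. The fit was tested on simulated data. For statements on genes outside the family, 16053 genes were each read from their brightest tested probe set.

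The 6 OPR genes and the gene lists were chosen with earlier results of these data known. Of the lists, 13 synthesis genes were matched by name, 12 were on the array and 9 passed the filter; for perception and TIFY genes these were 21, 20 and 19. One match, DAD1, was removed because the name belongs to a gene of another pathway. From each list the text names, per line and time, members with the largest called rises and those called lower. Other genes named from the lists, among them those named for a difference between the lines, were chosen after their values were seen. Alternatives were quantile normalization, median centring, no filter or a filter at 9 arrays, dim values raised to the array median, no intensity trend, only the arrays compared, a replicate block, each array left out and the second OPR5 probe set.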

Additional observations from a re-analysis of the deposited data

Results flagged for a closer look

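For OPR1, the change after 3 h of infestation in NIL-BPH9 minus that in 9311 was 1.20 on the log2 scale (limma, adjusted p = 0.0309), the single OPR gene for which a test of the difference between the lines' responses passed the threshold. OPR1 was higher at 3 h than at 0 h in 3 of 3 arrays of NIL-BPH9 and overlapped its 0 h range in 9311. Its levels in 9311 and in NIL-BPH9 at 0 h were not far from the array medians. Over 26 alternatives the difference ran from 1.03 to 1.36, and it was called in 16 of them. No OPR gene had a group of 4 or more arrays, so single arrays were not tested as outliers.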

How the results depend on the processing

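The NIL-BPH9 rises of OPR1, OPR5, OPR10 and OPR13 at 3 h and the 9311 rise of OPR13 at 3 h were called under all 26 alternatives with the same probe set. Over 1716 recomputed differences, 1637 kept their side of the threshold, 65 lost a call and 14 gained one, and no called difference changed direction. Median centring moved the median of all probe sets by up to 0.119, and it moved the share of calls that were higher in 9311 at 6 h from 56.3% to 85.0% and in NIL-BPH9 at 6 h from 44.3% to 76.8%. The number of OPR genes called for 9311 at 6 h against 0 h went from 1 to 0 with only the arrays compared. For 9311 at 6 h against 3 h it went from 1 to 0 with median centring or without the intensity trend. For NIL-BPH9 at 6 h against 0 h it went from 3 to 1 without the filter, with only the arrays compared, or with the second OPR5 probe set and no filter, to 2 with dim values raised or without the intensity trend, and to 4 with quantile normalization or median centring. Between the lines at 3 h it went from 3 to 2 with median centring, without the filter (with either OPR5 probe set), with dim values raised or without the intensity trend, and to 4 with only the arrays compared. For NIL-BPH9 at 6 h against 3 h it went from 1 to 0 with median centring and to 3 with only the arrays compared. For the line difference in the 3 h response it went from 1 to 0 with median centring, without the filter, or with the second OPR5 probe set and no filter. The cause was not tested.

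With 1 array left out, the counts of OPR genes called ran from 1 to 2 in 9311 at 3 h, 0 to 2 at 6 h and 0 to 1 from 3 h to 6 h. In NIL-BPH9 they were 4 to 4, 1 to 3 and 1 to 2. Between the lines they were 0 to 0 at 0 h, 1 to 3 at 3 h, 0 to 1 at 6 h, and 0 to 1 for the difference of either response.

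The replicate numbers were not used to pair samples: over 45 same-number pairs the correlation of deviations from the group means was -0.107 to 0.0662, and 0 of 18 arrays correlated best with their own number. A replicate block left every count of OPR genes called as it was, with 4 at 3 h and 3 at 6 h in NIL-BPH9, 1 for each comparison in 9311, 3 between the lines at 3 h and 1 at 6 h. OPR4 was at or above the array median on 3 arrays and dropped out under the stricter filter, so its changes are limited by dim signal.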

Other observations

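OPR12 (LOC107279821) on chromosome 4 is annotated to its own probe set and was not among the 6 genes. It was at or above the array median on 2 of 18 arrays and was not tested. Its log2 signal ran from 2.46 to 5.63.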
